A study of Mus musculus with 50 samples.

Results

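Liver tumours of ALIOS fed mice given the carcinogen diethylnitrosamine (DEN) were compared with liver tumours of ALIOS fed mice that had no DEN, called spontaneous tumours here. The comparison used 20 of the 50 RNA-seq libraries of the series, 8 of DEN tumours (T15, T16 and T22 to T27) and 12 of spontaneous tumours (T2 to T6 and T8 to T14). They were chosen by their labels, except that spontaneous tumour T1 was left out because its library held kidney transcripts. All 20 came from mice that ate the ALIOS (American lifestyle) diet, rich in trans fat and given with sugar in the drinking water. All were harvested at 48 weeks. The study's paper describes male C3H/He mice, a strain prone to liver tumours, and does not describe the mice given DEN. The dose and timing of DEN, the mouse that each tumour came from and the hour of collection were not given in the sources used here. Tumours of a group may therefore share a mouse, and p-values measure the spread between these libraries. Levels in 11 non-tumour ALIOS livers, in 5 DEN tumours of mice on the control diet (T17 to T21) and in 1 control diet tumour without DEN (T7) were read beside them, with no test.

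DEN is turned by cytochrome P450 enzymes of hepatocytes, above all Cyp2e1 of the cells around the central vein, into a species that alkylates DNA. Adducts that are not repaired leave point mutations, and in susceptible mouse strains these often activate the Ras-MAPK pathway through Hras, Braf or Egfr. A smaller class of mouse liver tumours carries active beta-catenin, the effector of Wnt signalling, and such tumours express genes of central vein hepatocytes.

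The DEN libraries held 28727716 to 45751398 counts and the spontaneous libraries 23798251 to 38199013. Mean totals differed by 4163613 counts (exact two-sided permutation test over 125970 choices of 8 of the 20, p = 0.0394, adjusted p = 0.236 over 6 library measures). All 20 tumours expressed hepatocyte genes, with a summed level over 24 hepatocyte protein genes of 108604 to 323082 counts per 1000000 (CPM) in DEN and 126155 to 288838 CPM in spontaneous tumours. DEN tumour T24 stood apart, with 135 genes over 4-fold above and 144 genes over 4-fold below every other tumour of the 20, where each of the other 19 had 0 to 4 and 0 to 19 such genes. Results that rest on T24 are given with and without it.

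No gene differed between DEN and spontaneous tumours at an adjusted p under 0.05 in edgeR's quasi-likelihood test. Of 14845 genes tested 0 were called (0.0%), and the smallest adjusted p was 0.212. At an unadjusted p under 0.05 there were 1079 genes (7.27%), of which 641 were higher in DEN tumours (4.32%) and 438 lower (2.95%). In 0 of the 14845 genes (0.0%) did all 8 DEN tumours lie above or below all 12 spontaneous tumours. The groups thus overlapped in every gene tested, and an overlap stated below does not set a gene apart from the rest. The limma voom fit with library weights also called 0 genes, with 2319 at an unadjusted p under 0.05. DESeq2 called 75 genes (0.505%), 51 higher (0.344%) and 24 lower (0.162%), with 1133 at an unadjusted p under 0.05, and 74 of the 75 had an unadjusted p under 0.05 in edgeR. These shares are of all 14845 genes, of which 576 had no adjusted p in DESeq2 and could not be called. Below, "higher" and "lower" members of a gene list are those with an unadjusted edgeR p under 0.05, to be read against 4.32% and 2.95% of all genes.

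The calls moved with the fit and with single tumours. DESeq2 without T24 called 94 genes (0.633%), 65 higher (0.438%) and 29 lower (0.195%), of which 51 were among the 75. A fit of all tumours other than T1 together called 47 of 17515 genes (0.268%), 42 higher (0.24%) and 5 lower (0.0285%), and 31 of the 42 had their highest level in T24. Without T24 that fit called 13 of 17267 genes (0.0753%), all higher. In edgeR on the chosen tumours, leaving out T24 gave 0 calls with 1072 genes at an unadjusted p under 0.05 (7.18%).

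For most genes the interval of the difference was narrow. The 95% interval lay inside 2-fold in either direction for 11522 genes (77.6%) and inside 4-fold for 14165 genes (95.4%). A log2 difference is given throughout as DEN minus spontaneous, so that 1 stands for a level 2 times as high in DEN tumours. Its median standard error over all genes was 0.20 and its median 0.004. The typical gene spread about alike in both groups, though single genes could differ. The median ratio of the standard deviations of log2 CPM, DEN over spontaneous, was 1.06, or 0.91 without T24.

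**Figure D1:**
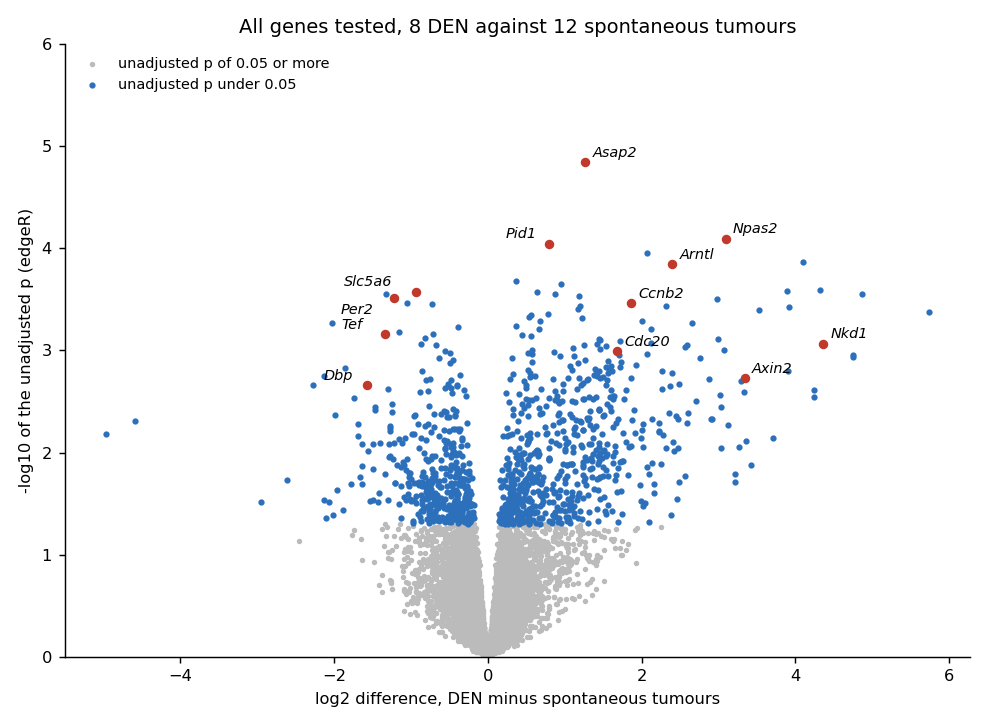
Each point is 1 of the 14845 genes, placed by its log2 difference (DEN minus spontaneous tumours, horizontal axis) and the -log10 of its unadjusted edgeR p (vertical axis), with 12 genes of the text named. The points with an unadjusted p under 0.05 number 1079, and none of the points passed adjustment, the smallest adjusted p being 0.212 for Asap2.

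Asap2, which encodes a GTPase-activating protein for Arf proteins, had the smallest p. It ran from 2.77 to 11.3 CPM with a median of 6.79 in DEN tumours, and from 1.81 to 5.23 CPM with a median of 2.65 in spontaneous tumours (log2 difference 1.27 ± 0.23 SE, p = 1.43e-05, adjusted p = 0.212). Of the 8 DEN tumours 6 lay above every spontaneous tumour, the exceptions being T22 and T26. Pid1, an adaptor that dampens insulin signalling, ran from 65.5 to 193 CPM in DEN tumours and from 47.8 to 75.6 CPM in spontaneous ones (log2 difference 0.79 ± 0.16, adjusted p = 0.228). Here too 6 DEN tumours lay above all spontaneous tumours.

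Slc5a6, the transporter of biotin and pantothenate, lay on the other side. It was at 5.59 to 9.69 CPM in 7 DEN tumours and at 18.1 CPM in T22, against 10.9 to 21.5 CPM in spontaneous tumours (log2 difference -0.93 ± 0.21, adjusted p = 0.228). The 7 lay below all spontaneous tumours. Wtip, a LIM domain protein of cell junctions, was at 1.32 to 2.01 CPM in DEN tumours and 1.83 to 6.68 CPM in spontaneous tumours, and 5 DEN tumours lay below all spontaneous ones (log2 difference -1.05 ± 0.25, adjusted p = 0.228). In DESeq2 the adjusted p was 0.000976 for Asap2, 0.0109 for Pid1 and 0.0169 for both Slc5a6 and Wtip. Of the genes described with values, 18 markers were fixed by name, and these 4 and the others were chosen after their values were seen. The share of all genes in which as many DEN tumours lay beyond every spontaneous tumour was not counted. Such numbers of tumours, here and below, therefore describe single genes and have no background to be read against.

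Circadian clock genes divided most DEN tumours from most spontaneous tumours. In the clock, the proteins of Arntl (Bmal1) and of Clock or its relative Npas2 bind E-box sequences and switch on Per, Cry, Nr1d, Dbp and Tef genes, and the Nr1d proteins in turn hold down Arntl, Npas2 and Nfil3 through ROR elements. The list of 6 morning clock genes holds Arntl with its partners Clock and Npas2, and also Nfil3 and Cry1. Of these 6, 4 were higher (Arntl, Npas2, Clock and Nfil3) and 1 was lower, with a median log2 difference of 0.90. Of 13 evening clock genes 0 were higher and 8 lower, with a median of -1.01. Without T24 the medians were 1.0 and -1.24, with 4 and 1 morning genes and 0 and 10 evening genes higher and lower. Clock genes vary with the hour of the day, and the part of the hour of collection in these differences was not tested. DESeq2 called Arntl and Npas2 higher and Per2, Tef and Dbp lower.

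Stretches of 4 of these promoters are shown because clock proteins act through elements of these kinds, Arntl and Nfil3 from the higher side and Tef and Ciart from the lower side. They are RefSeq sequences of build GRCm38.p6 that run from 250 bases before to 50 after the start site, written 5′ to 3′ on the strand of the gene. Capitals mark AGGTCA or its reverse complement TGACCT, the core of a ROR element, in the first pair, and CACGTG, an E-box that reads alike on both strands, in the second pair.
Arntl, chr7:113207261-113207560, plus strand: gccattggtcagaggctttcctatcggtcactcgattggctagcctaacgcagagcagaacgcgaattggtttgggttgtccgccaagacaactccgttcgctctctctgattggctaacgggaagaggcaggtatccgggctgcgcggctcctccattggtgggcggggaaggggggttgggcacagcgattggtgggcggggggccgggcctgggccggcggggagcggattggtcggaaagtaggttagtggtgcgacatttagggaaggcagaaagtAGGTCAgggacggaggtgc
Nfil3, chr13:52980990-52981289, minus strand: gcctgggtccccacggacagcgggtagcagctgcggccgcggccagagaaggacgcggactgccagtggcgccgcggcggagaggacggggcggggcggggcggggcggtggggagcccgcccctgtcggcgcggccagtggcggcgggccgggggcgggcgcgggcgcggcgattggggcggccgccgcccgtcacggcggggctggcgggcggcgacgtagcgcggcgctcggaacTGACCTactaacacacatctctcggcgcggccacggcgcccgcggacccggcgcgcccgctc
Tef, chr15:81802423-81802722, plus strand: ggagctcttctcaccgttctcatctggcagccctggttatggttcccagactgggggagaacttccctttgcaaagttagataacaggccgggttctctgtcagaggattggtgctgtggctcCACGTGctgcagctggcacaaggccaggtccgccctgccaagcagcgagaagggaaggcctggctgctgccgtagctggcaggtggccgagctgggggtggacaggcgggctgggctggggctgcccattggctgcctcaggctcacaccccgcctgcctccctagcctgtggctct
Ciart, chr3:95882179-95882478, minus strand: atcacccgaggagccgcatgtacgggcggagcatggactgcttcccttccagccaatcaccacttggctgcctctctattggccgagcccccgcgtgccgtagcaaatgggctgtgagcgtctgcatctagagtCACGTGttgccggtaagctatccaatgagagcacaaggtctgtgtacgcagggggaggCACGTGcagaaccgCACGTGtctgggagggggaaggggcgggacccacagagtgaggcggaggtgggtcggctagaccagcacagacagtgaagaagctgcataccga
CACGTG was in a promoter of 4 of 10 evening clock genes with a sequence (Tef, Per1, Ciart and Bhlhe41) and of 1 of 5 morning clock genes (Cry1), against 8.09% of 27025 genes and 7.15% of 32851 promoters. AGGTCA on either strand was in 3 of the 5 morning clock genes (Arntl, Clock and Nfil3) and 2 of the 10 evening clock genes (Nr1d2 and Per1), against 18.1% of genes and 16.3% of promoters. A match describes these letters in this window only.

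Arntl was at 11.3 CPM in T15, 24.7 in T16, 22.9 in T23, 14.1 in T25, 11.4 in T26 and 32.9 in T27, but at 1.51 in T22 and 0.918 in T24. The spontaneous tumours ran from 1.08 to 10.2 CPM with a median of 2.16, T4 being highest, and the ALIOS livers from 1.08 to 2.66 CPM. Thus 6 DEN tumours lay above all spontaneous tumours and T24 below them (log2 difference 2.40 ± 0.52, p = 0.000144, adjusted p = 0.228). Npas2 was low in the same pair of DEN tumours, at 0.679 CPM in T22 and 0.582 in T24 against 3.67 to 18.8 CPM in the other 6. In spontaneous tumours Npas2 lay at 0.158 to 1.38 CPM except for 3.67 in T4 (log2 difference 3.10, 95% interval 1.78 to 4.42, adjusted p = 0.228).

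Nfil3, a repressor of D-box genes, had medians of 14.4 CPM in DEN and 7.86 CPM in spontaneous tumours (log2 difference 1.15, adjusted p = 0.290), and the groups overlapped. The D-box activators lay on the other side. Dbp was at 6.12 to 58.3 CPM in 7 DEN tumours and 173 in T22, against 88.5 to 251 CPM in spontaneous tumours (log2 difference -1.58, 95% interval -2.51 to -0.64, adjusted p = 0.239). Tef was at 17.9 to 115 CPM in the same 7 and 201 in T22, against 97.5 to 284 CPM (log2 difference -1.33, adjusted p = 0.229). Below all spontaneous tumours lay 7 DEN tumours for Dbp and 6 for Tef, and T22 sat among the spontaneous tumours in both.

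Per2, a repressor of the Arntl complex, was at 19.8 to 53 CPM in DEN tumours and 33.6 to 129 CPM in spontaneous tumours (log2 difference -1.21, adjusted p = 0.228), with 5 DEN tumours below all spontaneous ones. Per3, its relative, was at 5.68 to 41.4 CPM in 7 DEN tumours, 98.7 in T22 and 43.9 to 115 CPM in spontaneous tumours (log2 difference -1.46, adjusted p = 0.278). Ciart, another repressor of the complex, had medians of 1.13 and 9.37 CPM, with 6 DEN tumours below all spontaneous ones (log2 difference -1.43, adjusted p = 0.580). Nr1d1 overlapped widely, at 23.6 to 128 CPM in DEN and 38.4 to 173 CPM in spontaneous tumours, with a 95% interval of the log2 difference of -0.83 to 0.41. Dbp, Tef and Nr1d1, like Asap2, Slc5a6, Cdc20, Glul and Braf, share exon bases with an expressed gene on the opposite strand. The library kit kept strand, but the strand setting of the counting was not given in the sources used here, so reads of such pairs may not be told apart.

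The fit and single tumours decided whether clock genes were called. The fit of all tumours together called Arntl and Npas2 higher and Per2 lower. Without T22, edgeR called 15 genes (0.1%), 8 higher (0.0534%) with Arntl and Npas2 among them and 7 lower (0.0468%) with Tef, Dbp and Per3 among them. Without T4 it called 8 genes (0.0541%), all higher, among them Arntl, Npas2, Ccnb1, Ccnb2 and Cdc20. The other 18 fits that each left out 1 tumour called 0.

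The control diet tumours did not order by DEN in the same way. Arntl was at 0.593 to 2.45 CPM in the 5 control diet DEN tumours and at 24.3 CPM in T7, which had no DEN. Dbp was at 94.3 to 295 CPM in those 5 and 25.3 CPM in T7. Asap2 was at 1.56 to 2.62 and 8.91 CPM, and Slc5a6 at 17.7 to 19.7 and 6.92 CPM. For these 4 genes T7 lay within the range of the ALIOS DEN tumours and outside that of the ALIOS spontaneous tumours. The part of the hour of collection in the values of T7 was not tested either.

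**Figure D2:**
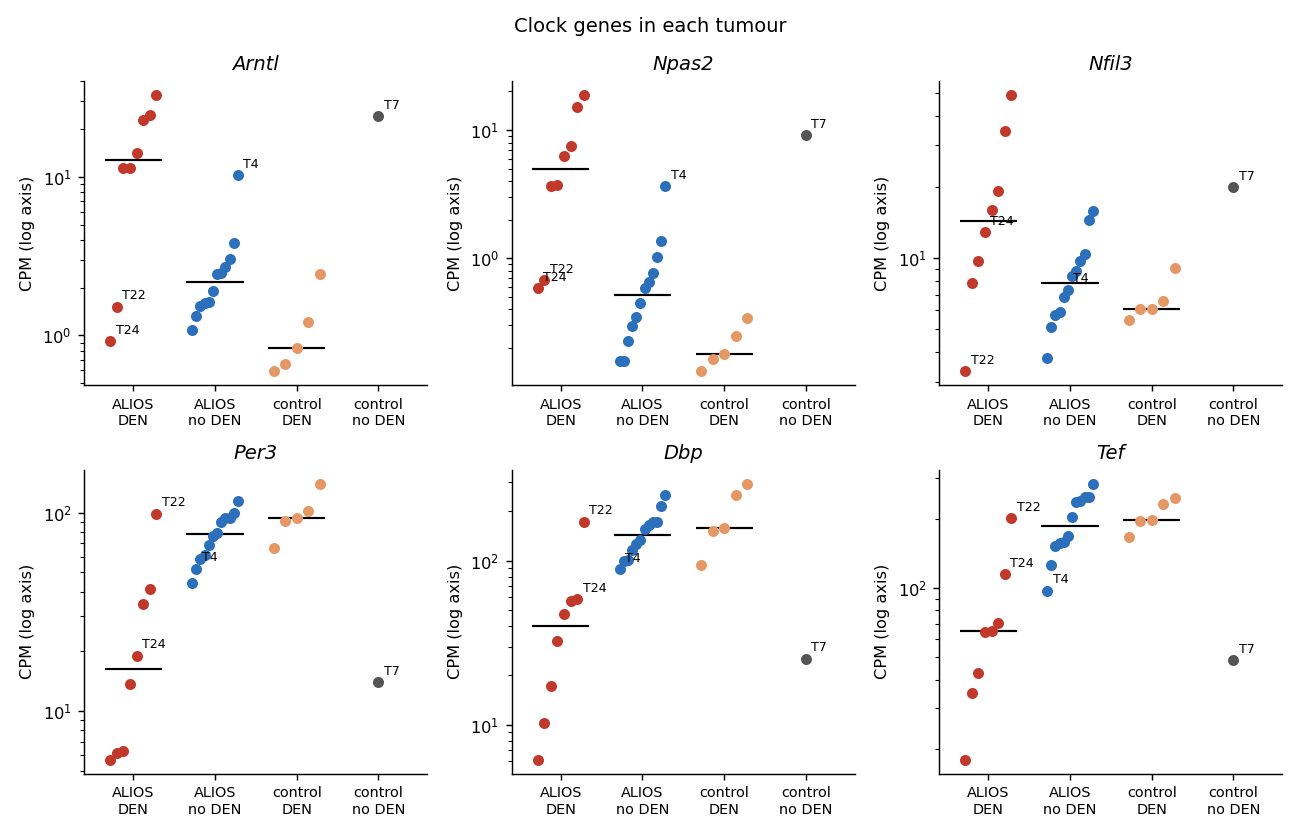
Levels of 6 clock genes in CPM (log axis), with 1 point per tumour and a bar at the median, for ALIOS DEN (8), ALIOS spontaneous (12), control diet DEN (5) and control diet spontaneous (1) tumours. DEN tumour T22 lies within the spontaneous range for Arntl at 1.51, Npas2 at 0.679, Per3 at 98.7, Dbp at 173 and Tef at 201 CPM, and is the lowest ALIOS tumour for Nfil3 at 3.32 CPM.

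Some genes of lipid synthesis and glucose output had medians that differed between the groups, with ranges that overlapped as in all genes tested. Thrsp, which drives fatty acid synthesis, was at 35.1 to 599.9 CPM (median 149) in DEN tumours and 77.2 to 1542 CPM (median 581) in spontaneous tumours (log2 difference -1.55, adjusted p = 0.379). Insig2, which retains the lipogenic factor SREBP in the endoplasmic reticulum, had medians of 267 and 136 CPM (log2 difference 0.92, adjusted p = 0.259), with 4 DEN tumours above all spontaneous ones and T24 below them. G6pc, the last enzyme of glucose output, had medians of 109.8 and 26.6 CPM, with 4 DEN tumours above all spontaneous ones (log2 difference 1.83, adjusted p = 0.364). Of 25 de novo lipogenesis genes 1 was higher and 4 were lower (median -0.33), and of 30 cholesterol genes 0 were higher and 0 lower (median -0.05, with 27 of 30 intervals inside 2-fold). The 38 glucose and fructose genes had 6 higher and 2 lower members (median 0.05), and 3 and 2 without T24 (median -0.07). Without T24 the lipogenesis counts were 1 and 3.

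Mitosis genes were mostly higher in DEN tumours at an unadjusted p, and genes of DNA replication mostly were not. Of 50 cell cycle genes 27 were higher and 0 lower, with a median log2 difference of 0.92. Divided by role after their values were seen, 25 of 26 genes of G2 and mitosis were higher (median 1.48), against 2 of 19 genes of DNA replication and S phase (median -0.01, with 14 intervals inside 2-fold) and 0 of 5 G1 cyclin and inhibitor genes (median 0.02). Without T24 the first 2 medians were 1.55 and -0.15. DESeq2 called 10 of the 26 and 0 of the 19.

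Ccnb2, a mitotic cyclin, was at 6.76 CPM in T15, 13.8 in T16, 2.87 in T22, 1.24 in T23, 5.70 in T24, 4.61 in T25, 5.55 in T26 and 10.3 in T27. In spontaneous tumours it was at 0.542 to 2.16 CPM except for 7.17 CPM in T4 (log2 difference 1.86 ± 0.44, p = 0.000343, adjusted p = 0.228). All DEN tumours but T23 lay above 11 of the 12 spontaneous tumours. Ccnb1, another mitotic cyclin, ran from 1.19 to 18 CPM against 0.542 to 7.73 CPM (log2 difference 2.08, adjusted p = 0.229). Cdc20, the activator of the anaphase-promoting complex, ran from 1.69 to 13.9 CPM against 0.503 to 6.54 CPM (log2 difference 1.68, adjusted p = 0.229). Both overlapped between the groups, with T4 again the highest spontaneous tumour.

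Mki67, a marker of cycling cells, had medians of 22.5 and 8.76 CPM and ranges of 5.15 to 56.8 and 5.46 to 37.5 CPM, which overlapped (log2 difference 1.03, adjusted p = 0.472). Mcm2, a subunit of the replicative helicase, was at 3.33 to 19.8 and 4.45 to 15 CPM, with a 95% interval of the log2 difference of -0.46 to 0.69. In control diet DEN tumours Ccnb2 was at 2.26 to 5.22 CPM, and all 5 lay above 11 of the 12 ALIOS spontaneous tumours and below T4. In ALIOS livers it was at 0.139 to 1.22 CPM. The median G2 and mitosis gene stood 0.96 (T23) to 4.50 (T27) log2 units above the median of the ALIOS livers in DEN tumours and 0.38 (T2) to 3.03 (T4) in spontaneous tumours. In the 5 control diet DEN tumours it stood at 1.48 to 2.43, within the range of the ALIOS spontaneous tumours. Single ALIOS livers reached 1.53, and 7 of 8 DEN tumours and 2 of 12 spontaneous tumours (T4 and T14) lay above that. T4 was thus the highest spontaneous tumour both for these genes and for Arntl.

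**Figure D3:**
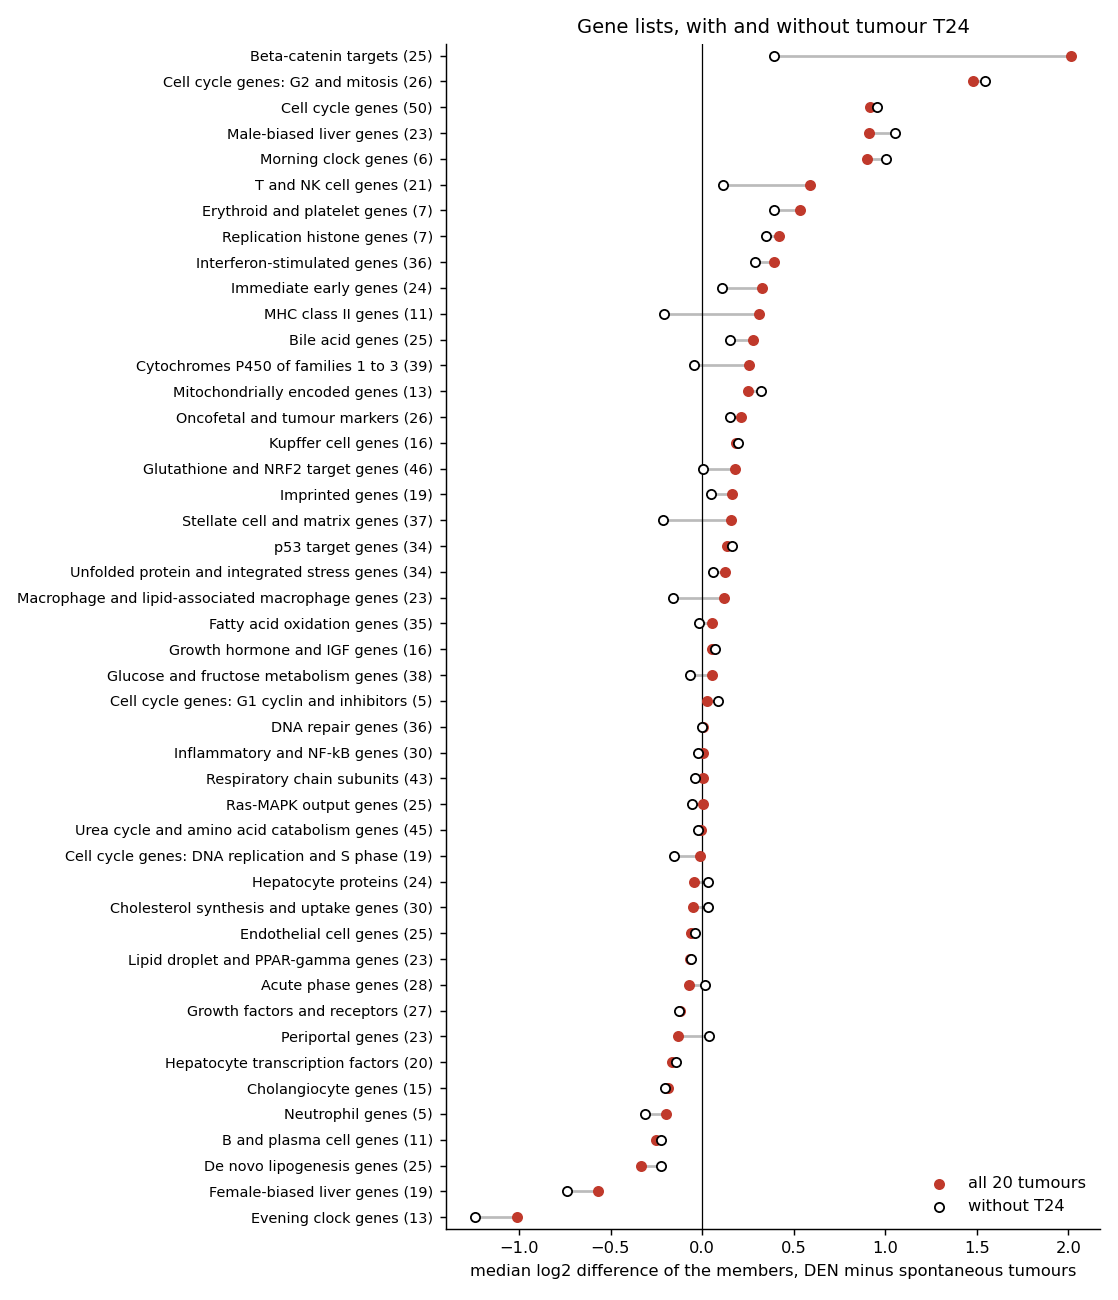
Median log2 difference (DEN minus spontaneous tumours) of the members of each gene list, from all 20 tumours and, as open circles, without T24, with the number of members tested in brackets. Beta-catenin targets moved from 2.01 to 0.39 without T24, while G2 and mitosis genes stood at 1.48 and 1.55 and evening clock genes at -1.01 and -1.24.

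The median difference of the beta-catenin targets was 2.01, and it rested on T24. Of 25 members tested 15 were higher with all 20 tumours and 0 without T24, where the median was 0.39. Nkd1, a feedback inhibitor of Wnt signalling, was at 295 CPM in T24 and at 0.388 to 7.37 CPM in the other 7 DEN tumours, against 0.221 to 8.87 CPM in spontaneous tumours and 1.98 to 4.38 CPM in ALIOS livers. Axin2, a standard reporter of the pathway, was at 103 CPM in T24 and at most 13 CPM in the other 19 tumours. Lgr5, a receptor that amplifies Wnt signals, was at 43.7 CPM in T24 and at most 12.8 CPM in the others. In T24, 10 of the 25 targets (Axin2, Dkk2, Glul, Nkd1, Notum, Oat, Rhbg, Rnf43, Sp5 and Tcf7) stood over 4-fold above every other tumour of the 20. Another 1 of the 25, Sox9, stood over 4-fold below all of them. Against the median of the ALIOS livers, the median target stood at 2.70 log2 units in T24 and 0.92 in T25. Single livers reached 0.21 and spontaneous tumours 0.23. Of 23 periportal genes 16 stood over 4-fold below every other tumour in T24, the urea cycle genes Cps1, Ass1 and Arg1 included.

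Central vein genes also divided the other tumours, in both groups. Glul, glutamine synthetase, was at 561 CPM in T22, 779 in T23 and 2379 in T25, but at 24.2 to 85.8 CPM in T15, T16, T26 and T27. Among spontaneous tumours it was at 345 to 1268 CPM in T2, T3, T5 and T6 and at 11.2 to 141 CPM in the other 8, and ALIOS livers ran from 514 to 1286 CPM. Some tumours of either group thus held Glul near the range of liver and others far below it. Cyp2e1, the enzyme that activates DEN, was at 40.4 to 5940.4 CPM in DEN tumours, 4.60 to 2763 CPM in spontaneous tumours and 3278 to 8117 CPM in ALIOS livers (log2 difference 1.10, 95% interval -0.90 to 3.10). Ctnnb1, beta-catenin itself, was at 176 to 374 and 162 to 434 CPM in the 2 groups, with an interval of -0.28 to 0.53.

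Genes downstream of Ras-MAPK signalling were at overlapping levels. The 25 output genes of the pathway had a median log2 difference of 0.00, with 0 higher and 1 lower and 16 of 25 intervals inside 2-fold. Their median member stood 0.30 to 1.86 log2 units above the median of the ALIOS livers in DEN tumours and 0.34 to 1.80 in spontaneous tumours. Hras, a GTPase, and Braf, the kinase it activates, had 95% intervals of the log2 difference of -0.67 to 0.29 and -0.44 to 0.35. Egfr, a receptor upstream of them, was at 20.4 to 397 CPM (median 112) in DEN tumours and 32.4 to 127 CPM (median 63.3) in spontaneous tumours (log2 difference 0.92, p = 0.0276, adjusted p = 0.564). For Egfr 4 DEN tumours, T25 highest, lay above all spontaneous ones and T24 below them, and the 5 control diet DEN tumours lay at 126 to 291 CPM. Gene counts do not show mutations.

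Genes that answer DNA damage were at overlapping levels too. The 34 p53 targets had a median log2 difference of 0.14, with 1 higher and 1 lower. Cdkn1a, the p53-driven cell cycle inhibitor, was at 43.0 to 124 CPM in DEN tumours and 4.92 to 169 CPM in spontaneous tumours, against 1.32 to 10.6 CPM in ALIOS livers (log2 difference 0.81, 95% interval -0.19 to 1.81). Mdm2, the inhibitor of p53, had an interval of -0.32 to 0.82. Of 36 DNA repair genes 2 were higher and 2 lower, with a median of 0.01 and 32 of 36 intervals inside 2-fold, and without T24 1 and 3 were higher and lower. Mgmt, which removes alkyl groups from guanine, was at 7.70 to 15.5 CPM in DEN tumours, lowest in T24, and 5.33 to 19.5 CPM in spontaneous tumours (log2 difference 0.05, 95% interval -0.35 to 0.46).

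Liver tumour markers overlapped between the groups. Afp, alpha-fetoprotein, was at 19.8 CPM in T23, 2567 CPM in T24 and 288 to 689.9 CPM in the other 6 DEN tumours. In spontaneous tumours it was at 3.6 CPM in T2, 5.05 CPM in T6 and 104 to 483 CPM in the other 10, against at most 1.25 CPM in ALIOS livers (log2 difference 1.38, 95% interval -0.07 to 2.82, adjusted p = 0.735). Gpc3, glypican 3, was lowest in the same tumours, at 7.05 CPM in T23, 2.21 in T2 and 2.87 in T6 (log2 difference 1.26, adjusted p = 0.802). T23, T2 and T6 were therefore the tumours closest to liver by these markers. Of 26 oncofetal and tumour markers tested 1 was higher and 0 were lower (median log2 difference 0.21), and 0 and 0 without T24.

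Igdcc4, an oncofetal surface protein, and the imprinted pair H19 and Igf2 had 95% intervals of -1.53 to 1.2, -2.78 to 1.59 and -1.66 to 1.19, so differences of 2-fold in either direction were not resolved for them. H19 reached 671 CPM in T13, and Igf2 was highest in T2 and T3, at 6.50 and 5.67 CPM. Of 19 imprinted genes 1 was higher and 0 were lower (median 0.17). Alb, albumin, was at 57611 to 188678 CPM in DEN tumours and 54155 to 203924 CPM in spontaneous ones (log2 difference -0.06, 95% interval -0.71 to 0.60).

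Interferon-stimulated genes were more often higher than the background share. Of 36 such genes 12 were higher and 0 lower (median log2 difference 0.39), and without T24 the counts were 11 and 0 (median 0.29). Isg15, a ubiquitin-like antiviral protein, was at 16.3 to 32.8 CPM in DEN tumours and 8.70 to 24.7 CPM in spontaneous tumours, and 6 DEN tumours lay above all spontaneous ones (log2 difference 0.61 ± 0.17, adjusted p = 0.232). Irgm1, an interferon-induced GTPase, was at 63.1 to 105 and 33.9 to 76.1 CPM (log2 difference 0.56, adjusted p = 0.229, DESeq2 adjusted p = 0.0381), with 5 DEN tumours above all spontaneous ones.

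Immune and stromal cell markers overlapped between the groups. The 21 T and NK cell genes tested had a median log2 difference of 0.59, or 0.12 without T24, and summed to 8.44 to 91.7 CPM in DEN tumours, T24 highest, and 6.34 to 57.6 CPM in spontaneous ones. The 23 macrophage genes summed to 1274 to 2586 and 1349 to 2621 CPM, and the 16 Kupffer cell genes to 218 to 1064 and 212 to 835 CPM. Of 37 stellate cell and matrix genes 5 were higher (median 0.16), and without T24 0 were (median -0.21). Col1a1, the main fibrillar collagen, was at 471 CPM in T24 and 2.43 to 13.9 CPM in the other DEN tumours, against 1.94 to 51.3 CPM in spontaneous tumours (log2 difference 2.42, adjusted p = 0.379, and a log2 difference of -0.44 without T24). Cd44, a hyaluronan receptor, was at 95.8 CPM in T24, 3.49 to 14.3 CPM in the other 7 and 2.89 to 14.8 CPM in spontaneous tumours. T24 was thus the highest of the 20 for both.

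The remaining marker lists gave ranges that overlapped. Endothelial genes summed to 383 to 724 CPM in DEN and 437 to 868 CPM in spontaneous tumours, cholangiocyte genes to 230.0 to 449 and 239 to 609.8 CPM, B and plasma cell genes to 10.1 to 76.2 and 9.48 to 80.1 CPM, and neutrophil genes to 2.72 to 25.1 and 3.98 to 22.9 CPM. Adipocyte genes summed to 99.1 to 2546 and 71.0 to 2280.1 CPM, and erythroid and platelet genes to 60.3 to 989.5 and 52.5 to 698 CPM. Of markers of organs other than liver, kidney genes (2 of 12 tested) were at 0.494 to 17.7 and 0.478 to 24.3 CPM and pancreas acinar genes (1 of 12 tested) at 34.2 to 189 CPM, T24 highest, and 12.4 to 57.3 CPM. In bulk tumour tissue, fewer cells of a type and less RNA per cell cannot be told apart.

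Sex-biased liver genes spread widely within both groups. Of 23 male-biased genes 6 were higher and 0 lower (median log2 difference 0.91, or 1.05 without T24), and of 19 female-biased genes 1 was higher and 3 were lower (median -0.57). Without T24 the female-biased counts were 0 and 7 and the median -0.74. Elovl3, a fatty acid elongase that is higher in male liver, was at 277 CPM in T23 and 273 in T25, 0.0353 to 12.8 CPM in the other 6 DEN tumours and 0 to 7.36 CPM in spontaneous tumours. ALIOS livers lay at 8.06 to 53.3 CPM and T7 at 149 CPM, and DEN tumours T23 and T25 above them both (log2 difference 4.75, edgeR adjusted p = 0.229, not called by DESeq2). The median male-biased gene stood below the range of the ALIOS livers in 11 of 12 spontaneous tumours and in 6 of 8 DEN tumours, and within it in T5, T23 and T25.

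Xenobiotic genes overlapped as well. Of 39 cytochromes P450 of families 1 to 3, 2 were higher and 3 lower (median log2 difference 0.25), and 0 and 4 without T24 (median -0.04). Cyp3a13 was at 12.3 to 36.2 CPM in DEN and 19.9 to 45.1 CPM in spontaneous tumours, and 6 DEN tumours lay below all spontaneous ones (log2 difference -0.71, adjusted p = 0.229, DESeq2 adjusted p = 0.0381). Of 46 glutathione and NRF2 target genes 6 were higher and 0 lower, and without T24 1 was higher.

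Hepatocyte and mitochondrial genes were at overlapping levels. Of 24 hepatocyte protein genes, 20 hepatocyte transcription factors and 43 nuclear respiratory chain subunits, 0 had an unadjusted p under 0.05 in edgeR and 0 were called by DESeq2, with medians of -0.04, -0.17 and 0.00. Without T24, 2 hepatocyte protein genes were higher. All 43 respiratory chain intervals lay inside 2-fold. The median respiratory chain gene stood below the median of the ALIOS livers in all 20 tumours, from -1.08 to -0.10 log2 units in DEN and -0.95 to -0.10 in spontaneous tumours, and T23, T25, T2 and T3 lay within the range of single livers. Of 13 mitochondrially encoded genes 3 were higher (median 0.25), of 35 fatty acid oxidation genes 2 were higher and 0 lower (median 0.06), and of 45 urea cycle and amino acid genes 0 were higher and 4 lower (median 0.00). Without T24 the counts of higher and lower genes were 3 and 2 for fatty acid oxidation and 5 and 3 for the urea cycle and amino acids. Of 25 bile acid genes 3 were higher and 0 lower (median 0.28), and 1 and 0 without T24 (median 0.15). Of 34 unfolded protein and stress genes 2 were higher and 1 lower (median 0.13), and 0 and 2 without T24. Of 24 immediate early genes 6 were higher and 0 lower (median 0.33), and 5 and 1 without T24 (median 0.11). Of 30 inflammatory and NF-kB genes 1 was higher and 1 lower (median 0.00), and 0 and 1 without T24. Of 28 acute phase genes 0 and 1 were higher and lower (median -0.07), and 2 and 2 without T24 (median 0.01). Of 27 genes of growth factors and receptors 3 and 0 were higher and lower (median -0.12), and 2 and 0 without T24. Of 16 growth hormone and IGF genes 0 and 0 were higher and lower (median 0.05), and 1 and 1 without T24. Of 11 MHC class II genes 0 and 0 were higher and lower (median 0.31), and 0 and 0 without T24 (median -0.21). Of 7 replication histone genes 2 and 0 were higher and lower (median 0.42), and 1 and 0 without T24. Of 23 lipid droplet and PPAR-gamma genes 1 and 1 were higher and lower (median -0.06), and 0 and 2 without T24. Of 4 sex chromosome genes 0 and 0 were higher and lower (median 0.05), and 0 and 0 without T24.

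**Figure D4:**
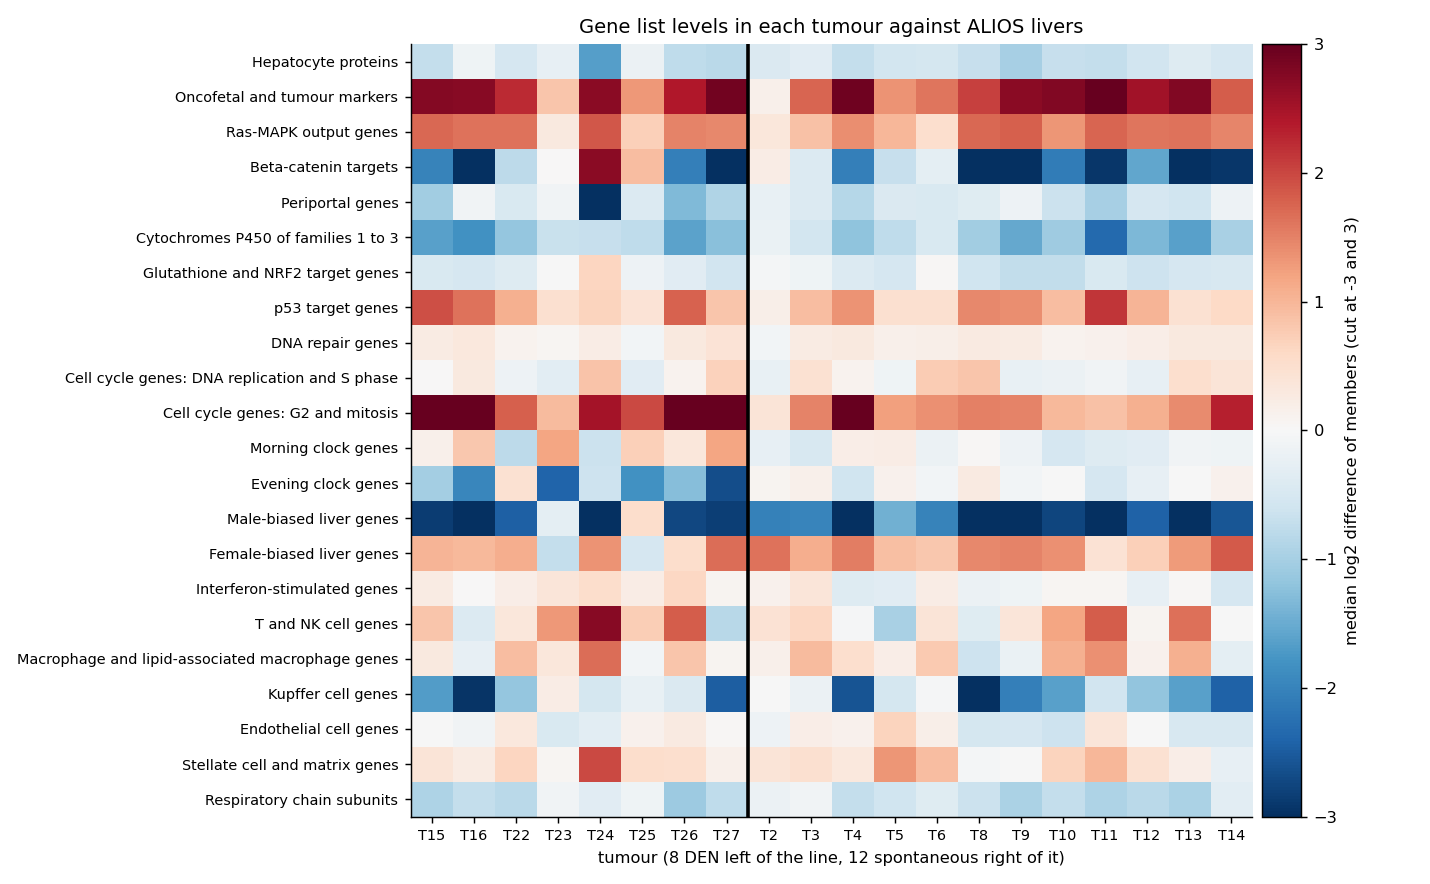
Colour gives the median log2 difference of the members of each gene list (rows) from the median ALIOS liver, for each of the 20 tumours (columns, 8 DEN and 12 spontaneous), cut at -3 and 3. G2 and mitosis genes reach 4.50 in T27, and T24 shows the highest beta-catenin targets, at 2.70, and the lowest periportal genes, at -5.90.

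Over the whole transcriptome the tumours did not fall into a DEN and a spontaneous cluster. The first principal component of log2 CPM held 36.7% of the variance and spanned -56.4 to 82.7 in DEN and -59.2 to 103.4 in spontaneous tumours. DEN tumours T23, T24 and T25 and spontaneous tumours T2, T3, T5 and T6, all with Glul above 300 CPM, lay between 29.9 and 103.4 on it, and the other 13, T22 with Glul in that range included, lay between -59.2 and 0.73. T2, T3, T5, T6, T23 and T25 were also the tumours with bile acid genes nearest to liver. The second component, with 17.7%, placed T24 at 136.9 and the other 19 between -29.5 and 28.5.

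The median log2 difference between the groups lay between -0.028 and 0.033 for every autosome and the X chromosome, but single tumours of both groups showed shifts of whole chromosomes. In DEN tumour T16 the 575 genes of chromosome 4 with a mean log2 CPM over 3 stood at a median of -0.37 log2 units against ALIOS livers, relative to the median of that tumour, with 72.9% of them below it. In the same tumour the 372 genes of chromosome 15 stood at 0.33. In spontaneous tumour T9 chromosome 8 stood at -0.41 over 480 genes, chromosome 5 at 0.25 over 591 and chromosome 10 at 0.30 over 456. The same measure reached at most 0.0452 in either direction in the ALIOS livers. Pairs of a tumour and a chromosome beyond that limit numbered 73 of 160 in DEN tumours, 77 of 240 in spontaneous tumours and 43 of 100 in control diet DEN tumours. All 8 DEN, all 12 spontaneous and all 5 control diet DEN tumours had such a pair. The ALIOS livers were themselves the reference, so the limit is low for a tumour. These pairs are therefore not a count of changed chromosomes, and the groups cannot be ranked by them. DNA copy number was not measured.

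**Figure D5:**
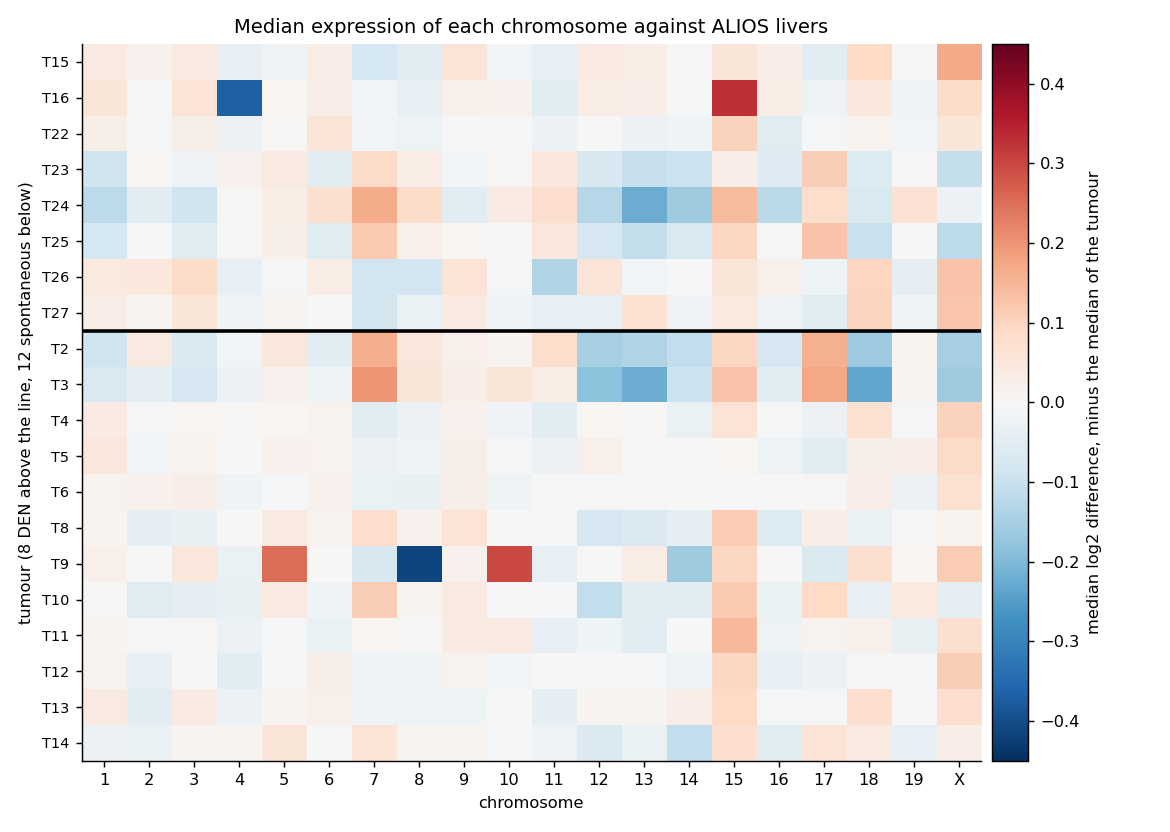
Median log2 difference of the genes of each chromosome (columns) from ALIOS livers, relative to the median of the tumour, for the 20 tumours (rows, 8 DEN and 12 spontaneous). The strongest shifts are chromosome 8 at -0.41 in T9 and chromosome 4 at -0.37 in T16.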

How the data were processed

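RNA-seq was performed on mRNA of mouse liver and liver tumours (stranded kit, paired reads, RNA integrity number above 8). Per the study's methods, the authors mapped reads to mm10 with STAR and made the deposited raw counts per gene with HTSeq over Gencode M6 exons. Tool versions were not given in the sources used here, and no normalisation was applied to the counts before deposit. The table holds 45792 genes, of which 23214 carry a symbol in the table and 22132 others were named from Gencode M21.

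Genes were tested with edgeR 4.0.16 in R 4.3.3 (filterByExpr, TMM factors, quasi-likelihood test, Benjamini-Hochberg adjustment, threshold 0.05) on the 8 DEN and 12 spontaneous ALIOS tumours. DESeq2 1.42.0, the tool of the study's methods, and limma 3.58.1 were alternatives. DESeq2 ran at its default settings, under which counts flagged as outliers are replaced in groups of this size. Its values may therefore not use every count of a tumour such as T24 unchanged. Standard errors follow from the fitted difference and its test, and intervals are 95%. CPM levels used TMM factors over 49 libraries, all but T1. List levels are medians over members of log2 CPM minus the median of the 11 ALIOS livers. Totals and 5 other library measures were compared by exact two-sided permutation tests. The pipeline was tested on simulated counts.

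The tumours compared, 47 gene lists and 18 named genes (Alb, Afp, Gpc3, Igdcc4, H19, Igf2, Mki67, Cd44, Col1a1, Cyp2e1, Glul, Cdkn1a, Mdm2, Mgmt, Hras, Braf, Egfr and Ctnnb1) were chosen with earlier results of these data known. The rule also named the most significant called genes, the genes whose groups did not overlap and the called members of each list, but there were none in edgeR. Other genes were chosen after their values were seen. Alternatives changed the size factors, test, filter, threshold, tumours fitted and depth, and 3 were added after seeing the data (DESeq2 without T24, all tumours together without T24, and T24, T2, T3 and T6 left out). No 2 libraries of a group were alike within sampling noise (smallest chi-square per gene 22.5). The result of 1 clock gene is not reported here, although it counts in its list.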

Additional observations from a re-analysis of the deposited data

Results flagged for a closer look

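Within the 8 DEN tumours, 13 of 100 values tested had 1 library separated from the other 7 by Dixon's criterion. At 1 in 20 the count would be 5 for independent values with a normal spread. These values come from the same 8 tumours, and some of the genes were chosen after their values were seen. The counts of 13 and 5 therefore cannot be compared. T24 was that library in 9 of the 13. It was highest for Nkd1 at 294.6 CPM, Col1a1 at 471 CPM and Cd44 at 95.8 CPM, and lowest for Mgmt at 7.70 CPM. Against the median of the ALIOS livers its median member stood at -1.66 log2 units for hepatocyte proteins, -5.90 for periportal genes and -1.79 for de novo lipogenesis genes, each the lowest of the group. It stood at 1.99 for stellate cell and matrix genes and 0.64 for glutathione and NRF2 target genes, each the highest.

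T23 was lowest for Afp, at 19.8 CPM, and for Gpc3, at 7.05 CPM. T22 was highest for Slc5a6, at 18.1 CPM. T26 was lowest for lipid droplet and PPAR-gamma genes, at -0.36 log2 units.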

How the results depend on the processing

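The count of 0 called genes in edgeR stayed at 0 under RLE and upper quartile factors, no filter and a mean count of at least 100. It also stayed at 0 with limma voom, thinned counts, T1 kept, T2, T3 and T6 left out, and T24, T2, T3 and T6 left out. A 2-fold limit and an adjusted p under 0.01 were applied to the same fit and could only lower the count. The 0 under these limits was therefore fixed in advance. The count was 75 in DESeq2, 47 with all tumours fitted together, 1 with T23 and T24 left out, 94 in DESeq2 without T24 and 13 with all tumours together without T24. Leaving out each tumour in turn gave 0 to 15 calls, with 15 without T22, 8 without T4 and 0 in the other 18 fits. The cause of these differences was not tested. The share of counts from Alb, DEN minus spontaneous, ran from -1.36 to 0.303 percentage points when single tumours were left out.

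Of 1654 values of 46 named genes under the alternatives, 1555 kept direction and side of the threshold, 55 passed it and 44 turned direction. The 2-fold limit and the stricter threshold are among these alternatives and could change neither. With limma voom the log2 difference was 0.13 for Alb, 0.39 for Igdcc4, 1.0 for H19, 1.06 for Igf2, 0.11 for Braf and 0.0019 for Nr1d1. With T1 it was 0.058 for Alb. With T23 and T24 left out it was 0.18 for Alb, 0.17 for Igdcc4, -0.27 for Col1a1, -0.070 for Cyp2e1, 0.11 for Braf, -0.022 for Mcm2 and -0.10 for Nkd1. With DESeq2 it was 0.82 for H19. With DESeq2 without T24 it was 0.050 for Alb, 1.76 for H19, -0.43 for Col1a1, 0.065 for Braf and -0.15 for Mcm2. With T2, T3 and T6 left out it was 1.5 for Igf2 and -0.032 for Ctnnb1. With all tumours together without T24 it was 0.061 for Alb, -0.42 for Col1a1, 0.076 for Braf and -0.13 for Mcm2. With T24, T2, T3 and T6 left out it was 1.10 for Igf2, -0.61 for Col1a1, -0.044 for Ctnnb1 and -0.20 for Mcm2. Leaving out single tumours gave log2 ranges of -0.16 to 0.050 for Alb, -0.12 to 0.063 for Braf, -0.44 to 2.87 for Col1a1, -1.39 to 1.71 for H19, -0.32 to 0.015 for Igdcc4, -0.62 to 0.33 for Igf2, -0.15 to 0.24 for Mcm2 and -0.015 to 0.14 for Mgmt. Col1a1 turned without T24, H19 and Mgmt without T13, and Igf2 without T2 or T3.

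Of 1620 list medians under the alternatives 1615 moved by less than the spread between tumours. That limit is wide, and the 2-fold limit and stricter threshold could not move a median. Without T24 the beta-catenin median went from 2.01 to 0.39 and still counts among the 1615. So do the stellate cell and matrix median, which turned from 0.16 to -0.21, and the MHC class II median, from 0.31 to -0.21. The 5 medians beyond the limit follow. The cell cycle median was 0.16 at a mean count of at least 100, a filter that leaves out low mitosis genes. The beta-catenin median was 0.14 with limma voom and 0.15 with T23 and T24 left out, the glutathione and NRF2 median 0.50 with T2, T3 and T6 left out, and the cholangiocyte median -0.75 with T1.

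No paired analysis was possible because the labels give each tumour its own number and name no mouse or batch. Thinning to the smallest total gave 0 calls and 1013 genes at an unadjusted p under 0.05.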
